A study of Rattus norvegicus with 9 samples.

Results

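The genes described here encode the proteins of the cytosolic ribosome, measured in the liver of young and old male Wistar rats. They are the rows of a gene count table whose symbol is Rpl or Rps, a number and at most one letter with an optional digit, with 10 or more counts in total and with symbols ending in PS or L left out, together with Rplp0, Rplp1, Rplp2 and Rpsa. This rule took 80 of 23479 rows, 49 for the large subunit and 31 for the small one. Of the 80, 69 bear the symbol of a ribosomal protein and 11 are numbered copies such as Rpl22l1, or Rps4y2. Poly(A) RNA was sequenced from 9 animals of this outbred strain, 5 young at 6 months and 4 old at 24 months, with no other treatment in the labels. The series design counts 4 to 5 animals per group, so each library stands for 1 animal.

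A ribosome joins a large subunit, which forms peptide bonds, to a small subunit, which reads the messenger RNA. Each subunit is built on ribosomal RNA, and most of its proteins are needed once per particle, so cells make them in matched amounts. In mammals the messenger RNAs of these proteins begin with a run of pyrimidines, the 5′ terminal oligopyrimidine tract, or TOP. Through it their translation follows the kinase complex mTORC1, so the level of the RNA and the output of protein can part. Mammalian genomes also carry many processed copies of these genes. Reads from such copies and from the parent gene are hard to tell apart.

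The start of a gene is where the TOP tract would lie, and 12 windows are shown here for their pyrimidine runs. They hold 30 bases, 15 before and 15 after the start that RefSeq annotates in the GRCr8 assembly, which was not measured here, and the longest unbroken run of C and T is in capitals. The windows of Rpl10, Rpl19, Rpl22, Rpl31, Rplp1 and Rps15 are examples of long runs, those of Rpl12 and Rps10 belong to genes whose counts stand out below, and those of Rpl41, Rps6, Rpl22l1 and Rpl7l1 are examples of short runs.
Rpl10, chrX:157205835-157205864, plus strand: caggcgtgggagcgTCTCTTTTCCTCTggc
Rpl19, chr10:83519049-83519078, plus strand: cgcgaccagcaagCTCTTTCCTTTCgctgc
Rpl22, chr5:168117946-168117975, plus strand: gtagtgcgCCCCCCTCCCTTTCTgcctcct
Rpl31, chr9:49143096-49143125, plus strand: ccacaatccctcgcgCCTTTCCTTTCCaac
Rplp1, chr8:71290858-71290887, minus strand: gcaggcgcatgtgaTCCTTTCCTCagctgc
Rps15, chr7:10068101-10068130, minus strand: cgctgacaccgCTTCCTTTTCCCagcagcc
Rpl12, chr3:36661925-36661954, plus strand: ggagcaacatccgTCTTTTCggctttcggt
Rps10, chr20:5700730-5700759, minus strand: gccgcgcacgCCCCTTCCTTTCCagcctcc
Rpl41, chr7:1563483-1563512, minus strand: ggcggCTCggaagtgacgacaccaagcacg
Rps6, chr5:106420526-106420555, minus strand: gacgCCTCCTaggcggtcggctgtgtcaag
Rpl22l1, chr2:113683181-113683210, plus strand: gCTCCgtggatatccggttccgagttgcgc
Rpl7l1, chr9:21695703-21695732, plus strand: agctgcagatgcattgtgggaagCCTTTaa

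A window was found for 55 of the 69 genes with a plain ribosomal protein symbol. The longest run of C and T had at least 8 bases in 36 of them (65.5%), against 11.4% of all 33469 windows in the RefSeq table. Runs of at least 10 bases were present in 27 (49.1%), against 4.91% of all windows. The median longest run was 9 bases against 4. The first annotated base was C in 50.9% of these genes and in 24.1% of all. The letters CTTTCC stood on the sense strand in 13 windows (23.6%), against 1.24% of all, and on either strand in 25.5% against 2.52%; a CTTTCC can lie inside a longer run. The 9 windows of numbered copies and Rps4y2 had a median longest run of 5 bases, and 2 of them reached 8. These matches are a description of letters in a window and not of sites in use.

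**Figure D1:**
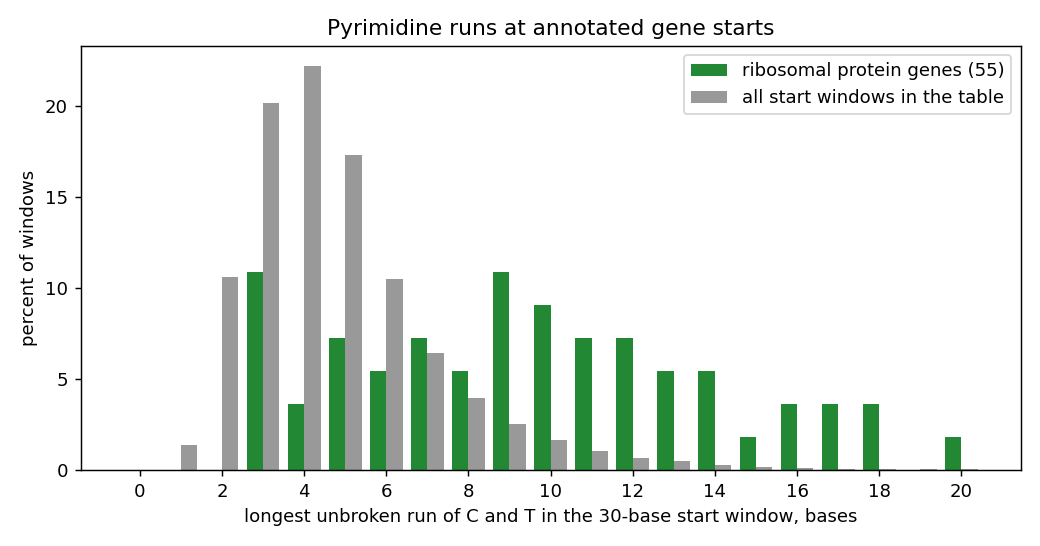
Longest unbroken run of C and T (horizontal axis, bases) in the 30-base window around the annotated gene start, as a percent of windows (vertical axis), for 55 ribosomal protein genes (green) and for all 33469 windows (grey). The green bars reach far to the right of the grey ones, with a median of 9 against 4 bases; runs over 20 bases, which no ribosomal protein gene had, are not drawn.

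As a family these rows took a small share of the deposited counts, highest in old 1 and lowest in young 1. Copy rows under other names, described below, are not part of this share, so it is not the family's share of liver RNA. Their share of all counts was 0.641, 0.779, 0.747, 0.796 and 0.784% in young livers 1 to 5 and 0.956, 0.804, 0.698 and 0.736% in old livers 1 to 4. The mean was 0.749% ± 0.0632 (SD, n = 5) in the young and 0.798% ± 0.114 (SD, n = 4) in the old group. The groups overlapped. Without old 1 the old mean was 0.746% ± 0.0537. Large subunit genes held 0.585% ± 0.0503 of counts in the young and 0.623% ± 0.0903 in old livers, and small subunit genes 0.164% ± 0.0133 and 0.175% ± 0.0235. Counts of the large over the small subunit kept a ratio of 3.57 ± 0.085 in the young and 3.55 ± 0.0416 in old livers, so the libraries that stood high or low did so for both subunits.

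**Figure D2:**
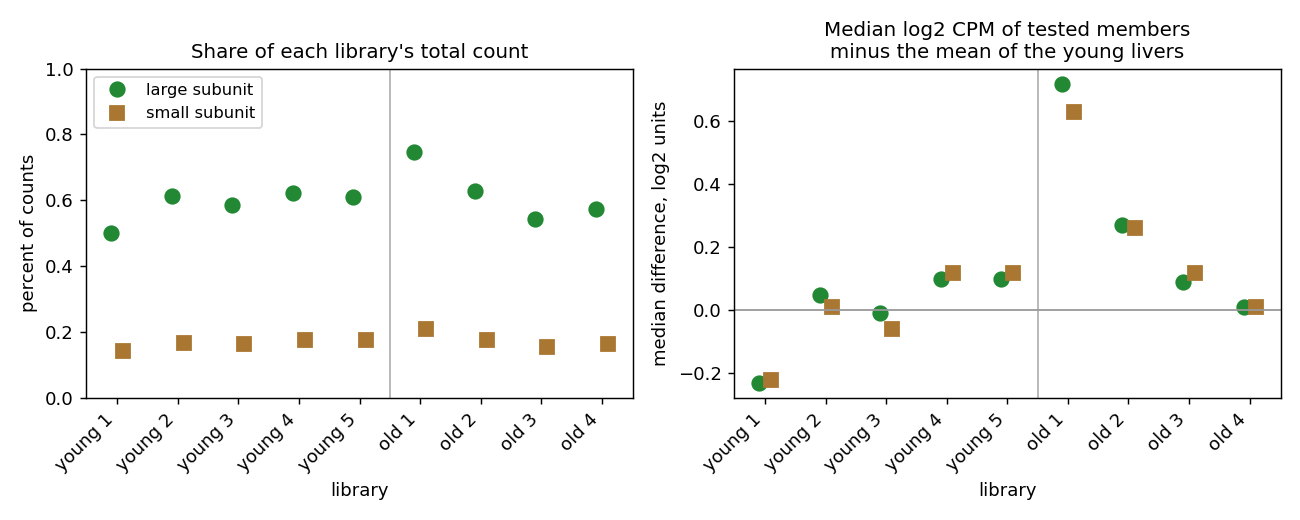
Left, percent of each library's counts (vertical axis) held by large subunit (green circles) and small subunit genes (brown squares) in the 9 libraries (horizontal axis). Right, the median over tested genes of the log2 CPM minus the mean of the young livers; old 1 lies at 0.72 and 0.63, young 1 at -0.23 and -0.22, and the other 7 libraries between -0.06 and 0.27.

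Depth was similar in both groups, at 18942191 to 25215805 counts in the young and 18586798 to 32882704 in old libraries. Levels below are in CPM, counts relative to the library size after TMM scaling. They are not corrected for transcript length, so levels of different genes are not compared. In old 1, which had the most counts, all deposited counts were even. Albumin took 10.8 to 11.6% of the counts of young and 13.5 to 20.5% of those of old livers, so all libraries carry the mark of hepatocytes. Erythroid markers summed to between 147 and 526 CPM in young livers and between 664 and 2662 CPM in old ones, and lymphocyte markers to 35.2 to 57.2 and 63.4 to 165 CPM. Of the tested markers, 8 of 9 erythroid and 18 of 18 lymphocyte genes had a log2 fold change above 0. Heart muscle markers summed to 14.3 CPM in young 1, to between 119 and 148 CPM in the other young livers, and to 4.21 to 7.98 CPM in old ones. Old 1 had the lowest sum of Kupffer cell and macrophage markers, 159 CPM, against 296 to 611 in young livers and 558 to 1140 in the other old ones. Of 17 tested genes of that list, 15 had a log2 fold change above 0, with a median of 0.69. Old 1 also had the lowest sum of endothelial markers, 247 CPM, against 536 to 586 in young livers and 366 to 582 in the other old ones. Of 14 tested endothelial genes, 12 had a log2 fold change below 0, with a median of -0.57. Monocyte and neutrophil markers summed to 355 CPM in old 3 and to 67.3 to 88.3 CPM in the other libraries. In this list, 9 of 10 tested genes had a log2 fold change above 0, and 8 did without old 1. The part of these cell types in the results that follow was not tested. In bulk tissue, fewer cells of a type and less RNA per cell cannot be told apart.

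Between old and young livers, no ribosomal protein gene passed an adjusted p of 0.05, and nearly all of them lay slightly higher in the old group. Counts allowed a test in 71 of the 80 genes, 45 of the large and 26 of the small subunit. By edgeR's quasi-likelihood test with Benjamini-Hochberg adjustment over 12778 genes, 0 of 71 were called, against 0.657% of all genes called higher and 0.344% called lower. At an unadjusted p under 0.05, 17 of 71 (23.9%) were higher and 0 were lower, against 8.94% and 6.96% of all genes. DESeq2 called far more genes than edgeR, 687 of 18007, of which 406 were higher. Of this family it called 3 genes higher, Rpl12, Rpl17 and Rps9, the last of which had too few libraries with counts for the edgeR test.

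The log2 fold change of old over young was above 0 in 69 of 71 genes, against 51.2% of all genes. Its median was 0.29 over the 45 large and 0.28 over the 26 small subunit genes, against 0.01 over all genes. The middle of the family was narrow, with quartiles at 0.23 and 0.35. One library carried much of this. Old 1 had the highest level of 65 of the 71 genes, and young 1 the lowest of 58. Without old 1 the medians of the same genes were 0.12 and 0.13, and Rps9 passed the filter through its old libraries only. At an unadjusted p under 0.05, 3 of 72 genes, Rps9 among them, were then higher. That is 4.17%, against 8.63% of all genes higher and 6.50% lower without old 1. With libraries scaled by their totals alone the medians were 0.11 and 0.10 while the median of all genes was -0.17, and 2 of 71 genes (2.82%) were higher at an unadjusted p under 0.05, against 3.81% of all genes higher and 20.9% lower. Without old 1, or with that scaling, the share higher was thus not above that of all genes, while 0 genes of the family were lower in either setting. Without old 1, 63 of the 71 genes had a log2 fold change above 0, and with totals alone 64. Of all 12778 genes, 6232 were above 0 without old 1 and 3503 with totals alone. The count of 17 fell to 4 without young 1, to 6 without young 2, to 5 without young 3 and to 11 without old 2, and it was 29 without old 3 and 41 without old 4.

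**Figure D3:**
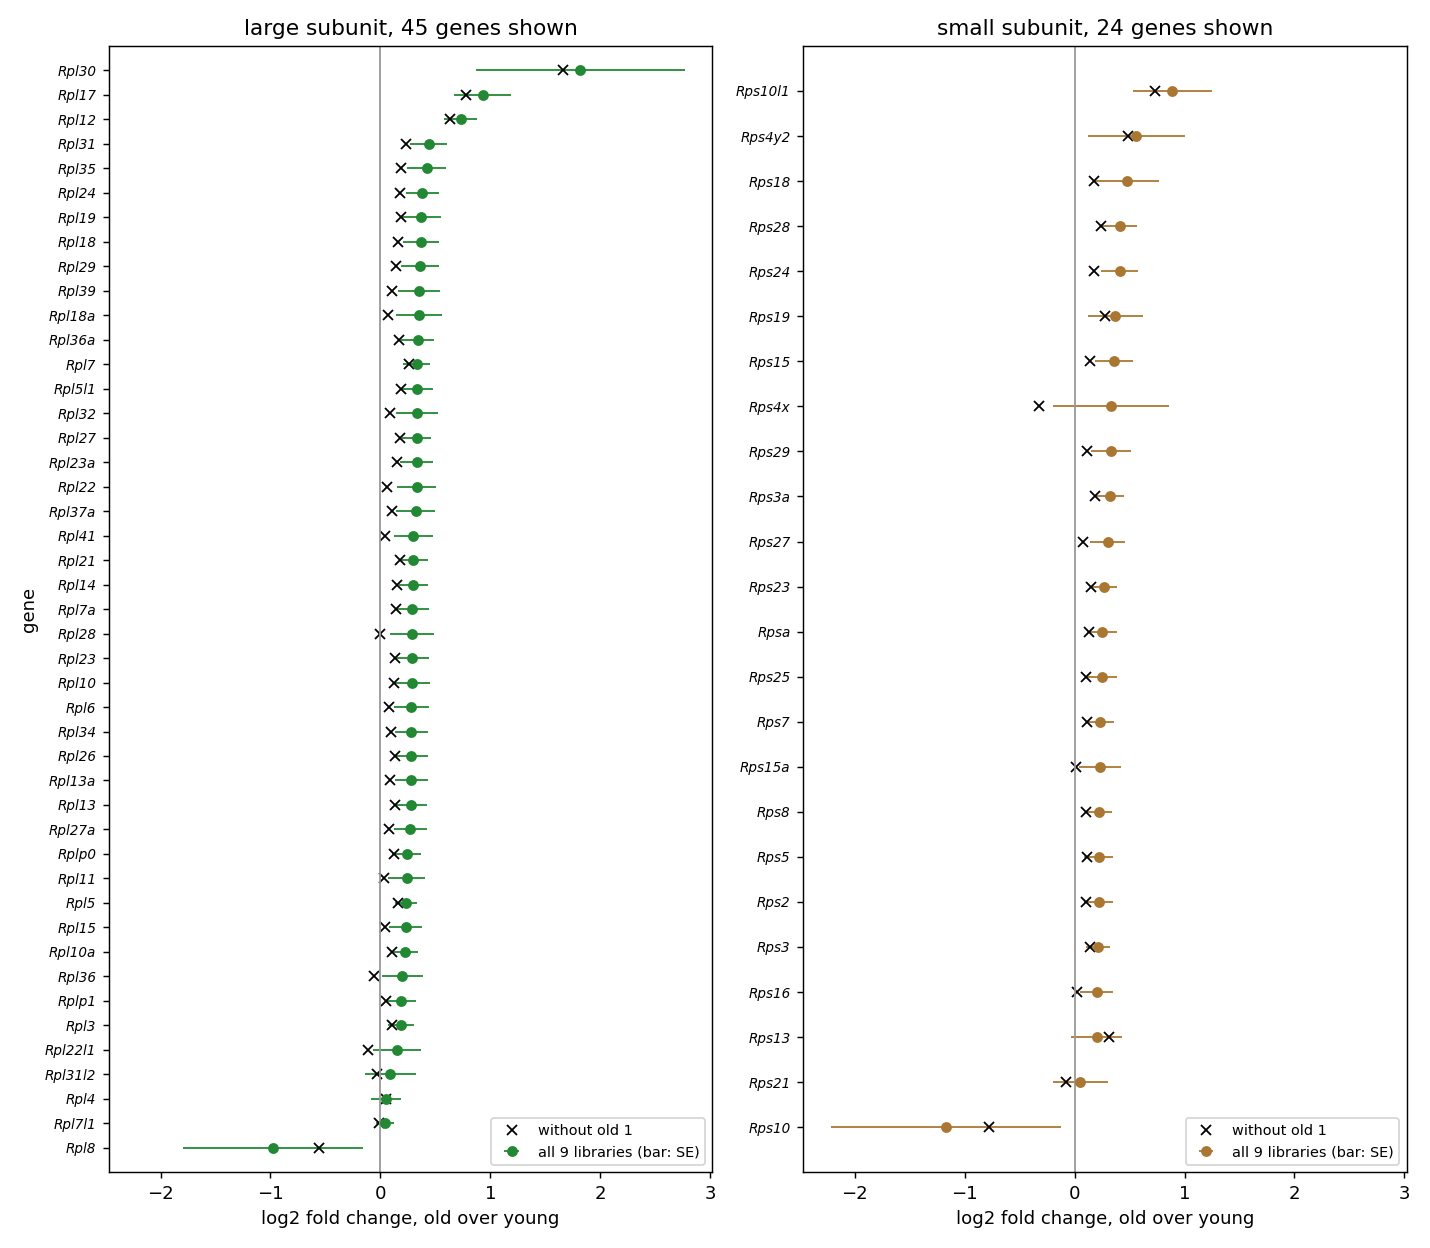
Log2 fold change of old over young (horizontal axis) for the 45 large subunit genes tested (left, green) and 24 of the 26 small subunit genes tested (right, brown), with the SE as bars; crosses give the value without old 1. Most points lie between 0.2 and 0.4 with crosses nearer to 0. Rpl30, Rpl17, Rps10l1 and Rpl12 lie to the right, and Rpl8 and Rps10 to the left with wide bars.

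The stalk of the large subunit, which draws elongation factors to the ribosome, is built of the proteins of Rplp0, Rplp1 and Rplp2 on a base formed with that of Rpl12. Rplp0 was at 406, 493, 485, 521 and 494 CPM in the young and 693, 580, 517 and 468 CPM in the old livers. Its groups overlapped, and the log2 fold change was 0.24 ± 0.13 (SE; edgeR adjusted p = 0.423). Rplp1 was at 73.7 ± 5.57 CPM (SD, n = 5) in the young and 84.1 ± 17.6 CPM (SD, n = 4) in old livers, a log2 fold change of 0.19 ± 0.13. Rplp2 had 19 counts in all 9 libraries together, and no difference in it was detectable at this depth.

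Rpl12 was the gene of the family with the smallest p. Its level was 19.9, 23.4, 24.3, 22.3 and 23.5 CPM in the young and 45.1, 27.8, 45.9 and 31.9 CPM in the old livers. Every old liver was above every young one, with old 1 and old 3 the highest. The log2 fold change was 0.73 ± 0.15, with an unadjusted p of 0.00064 and an edgeR adjusted p of 0.0549. DESeq2 gave an adjusted p of 0.00172, and edgeR without old 2, the lowest old liver for this gene, one of 0.0165. Leaving out any other library gave edgeR adjusted p-values of 0.059 to 0.144. The adjusted p was 0.0737 in limma-voom and 0.203 in edgeR with the replicate number as a block, so most settings did not pass the threshold. Unlike the median of the family, its value changed little without old 1, at 0.63. On TMM-scaled levels, the groups were separated without overlap in 4 of the 71 tested genes, each higher in old livers: Rpl12, Rpl17, Rpl27 and Rps10l1. That is 5.63%, against 3.40% of all genes higher and 3.12% lower. For Rpl12, Rpl17 and Rpl27 the separation depends on the scaling. As a share of the library total, Rpl12 in old 2 (483 of 18586798 counts) was below young 3 (516 of 19754382). Rpl17 in old 2 was likewise below young 2, and Rpl27 in old 3 below young 4. Rps10l1, a row of few counts, stayed apart on totals. Its lowest old share was 22 of 23327482 counts in old 3 and its highest young share 18 of 19574108 in young 4. Among untested genes, Rps9, with too few libraries with counts for the test, and Rpl34l1 did not overlap either. Both separations are thin. Rpl34l1 had 49 counts in all, with 5 in old 3 and 6 in young 1, and Rps9 had 12 in old 1 and 9 in young 1. No share over all untested genes was formed.

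The proteins of Rpl4 and Rpl17 line the tunnel through which the new peptide leaves. Rpl17 was at 10.4, 24.4, 22.5, 15.6 and 11.9 CPM in the young and 41.8, 27.2, 33.7 and 26.8 CPM in the old livers. The groups did not overlap, and the log2 fold change was 0.93 ± 0.26 (edgeR adjusted p = 0.128, DESeq2 0.021). Rpl4 was at 427 ± 47.3 CPM in the young and 443 ± 75.4 CPM in the old livers. Its log2 fold change was 0.05 ± 0.14, and scaling by totals alone gave -0.12.

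Rpl3, whose protein lies close to the site where peptide bonds form, was at 302, 370, 369, 375 and 366 CPM in the young and 470, 427, 385 and 340 CPM in the old livers. The groups overlapped, with a log2 fold change of 0.19 ± 0.12 and an unadjusted p of 0.153. Rpl5 and Rpl11, whose proteins join the ribosome with a small ribosomal RNA and bind Mdm2 when free, had log2 fold changes of 0.23 ± 0.10 and 0.24 ± 0.17. Rpl41, which encodes a very short peptide between the subunits, was at 296 ± 19.1 CPM in the young and 364 ± 121 CPM in the old livers. Its highest value was 543 CPM in old 1, while the other 3 old livers lay between 284 and 328 CPM.

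Rpl7, Rpl27 and Rpl31 completed the large subunit genes with the smallest p. Rpl7 was at 274, 338, 315, 352 and 371 CPM in the young and 469, 427, 366 and 392 CPM in the old livers, a log2 fold change of 0.33 ± 0.12 (unadjusted p = 0.0215, edgeR adjusted p = 0.23). Only old 3 fell inside the young range. Rpl27 was at 56.5, 64.2, 65.6, 71.6 and 70.6 CPM in the young and 106, 76.2, 73.5 and 73.8 CPM in the old livers. Its groups did not overlap, but 3 of the 4 old livers lay just above the young ones, and the log2 fold change was 0.33 ± 0.13 (edgeR adjusted p = 0.256). Rpl31 was at 18.5 ± 2.61 CPM in the young and 25 ± 6.95 CPM in the old livers, a log2 fold change of 0.44 ± 0.17 (edgeR adjusted p = 0.262).

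Rpl22 and its numbered paralog Rpl22l1 were read as a pair, because in mouse the Rpl22 protein is known to hold down Rpl22l1. Rpl22 was at 17.6, 21.3, 21.9, 20.2 and 21.5 CPM in the young and 38.5, 22.3, 21.2 and 20.6 CPM in the old livers. Rpl22l1 was at 11.1, 12.7, 14.8, 14.4 and 14.4 CPM in the young and 22.3, 12.8, 15.7 and 8.9 CPM in the old livers. In both genes old 1 was highest and the groups overlapped. The log2 ratio of Rpl22l1 to Rpl22 was -0.66, -0.74, -0.57, -0.48 and -0.58 in the young and -0.79, -0.79, -0.43 and -1.21 in old livers, and it does not depend on library scaling. The old mean was lower by 0.20, a difference of -0.20 with a two-sided exact permutation p of 0.238 over 126 divisions of the libraries, of which the smallest possible is 0.00794. Leaving out 1 library moved the difference from -0.07 without old 4 (exact p = 0.554) to -0.32 without old 3, the library with the highest ratio, where the exact p of 0.0179 is the smallest that 56 divisions can give. Rpl7l1, a homologue of Rpl7, varied little, at 67.9 ± 2.58 CPM in the young and 70 ± 5.67 CPM in the old livers. Its log2 fold change was 0.04 ± 0.08, and -0.13 with scaling by totals alone.

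In the small subunit, Rpsa, whose protein also bears the name laminin receptor, was at 272, 326, 327, 349 and 355 CPM in the young and 484, 400, 338 and 331 CPM in the old livers. The groups overlapped, with a log2 fold change of 0.25 ± 0.14 (edgeR adjusted p = 0.404). Rps16 was at 197 ± 17.8 CPM in the young and 226 ± 52 CPM in the old livers, a log2 fold change of 0.20 ± 0.15. Both were among the small subunit rows with the highest mean counts.

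Among the small subunit genes with the smallest p were Rps28, Rps10l1, Rps3a and Rps24, none of which passed the adjusted threshold. Rps28 was at 51.3, 62.5, 55.5, 67 and 70.4 CPM in the young and 109, 82.3, 67.1 and 68 CPM in the old livers, with a log2 fold change of 0.41 ± 0.16 (edgeR adjusted p = 0.245). Old 1 and old 2 were above all young livers, and old 3 and old 4 lay among them. The log2 fold change was 0.41 ± 0.17 for Rps24 and 0.32 ± 0.13 for Rps3a. Without old 1 these came to 0.18 and 0.19. Rps10l1, a numbered copy, was low throughout, at 0.653 ± 0.263 CPM in the young and 1.19 ± 0.249 CPM in the old livers, a log2 fold change of 0.89 ± 0.36 (edgeR adjusted p = 0.266). Rps21 had, after Rps10, the lowest fold change of the small subunit genes tested, a log2 value of 0.05 ± 0.25 from 0.669 ± 0.101 CPM in the young and 0.683 ± 0.138 CPM in the old livers, and scaling by totals alone gave -0.13.

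A few rows varied more than the rest of the family. Over the 9 libraries the coefficient of variation had a median of 21.4% among the 68 genes whose mean reached 1 CPM. It was over 40% in 7 of them, among them Rps9, Rps10, Rpl30, Rpl8, Rps4y2 and Rpl17, and the next below was 37.2%. These genes were picked out after their values were seen.

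Rps9, whose protein lines the entry of the messenger RNA into the small subunit, had 9, 9, 3, 5 and 3 counts in the young and 12, 663, 749 and 394 counts in old livers. The last 3 old livers were far above the young ones, and old 1 was barely above them, at 0.423 CPM against at most 0.343. The filter on low counts left this gene out, because only 3 libraries held enough counts. Without that filter the log2 fold change was 6.43 ± 1.18 (edgeR adjusted p = 0.0686). A filter at a mean of 1 CPM gave 6.44 ± 1.08 (edgeR adjusted p = 0.0376), and leaving out old 1, the old library at the level of the young ones, gave 6.84 ± 0.37 (0.000292). The gene passes these filters only through its old libraries and was picked out for its spread. These p-values, and its call by DESeq2, are thus a description and no evidence of a difference.

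Rps10, a protein of the head of the small subunit, was at 8.5, 10.6, 4.91, 5.01 and 5.39 CPM in the young and 0.353, 11.9, 0.369 and 0.201 CPM in the old livers. Old 1, old 3 and old 4 were near 0 and old 2 was the highest of all 9. The log2 fold change was -1.17 ± 1.05 (edgeR adjusted p = 0.61), and limma-voom gave -3.32, with an adjusted p of 0.104. It was -4.47 without old 2, the old liver that goes against the difference, and between -1.26 and -0.76 without any other library, with adjusted p-values of 0.643 to 0.784. Rpl8, a protein of the large subunit's catalytic region, was at 10.2, 14, 12.5, 13.6 and 15.2 CPM in the young and 0, 14.8, 6.18 and 5.78 CPM in the old livers. Old 2 lay among the young livers and the other 3 old ones were lower, with a log2 fold change of -0.98 ± 0.82 (edgeR adjusted p = 0.58). It was -0.56 without old 1, -1.73 without old 2 and -3.28 in limma-voom, and none of these passed the adjusted threshold. Old 1 had a count of 0 for Rpl8, and 3 counts correspond to 0.106 CPM in that library.

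Rpl30 was near 0 in 2 libraries. It was at 10.2, 12.6, 10.5, 0.0486 and 0.154 CPM in the young and 31.1, 29.4, 12.4 and 22.6 CPM in the old livers. Young 4 and young 5 were the low ones, and old 3 lay below young 2. Young 4 held a single count, so the ratio of the highest to the lowest library, 640-fold, has an exact 95% counting interval of 115 to 25313. The log2 fold change was 1.82 ± 0.95 with an unadjusted p of 0.0865, and 3.43 in limma-voom (adjusted p = 0.208).

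The table also has rows for copies of these genes under other names. By gene ID, RefSeq names 101 such rows as ribosomal protein genes or copies, of which 81 had any count and 26 had at least 50. The copy Rpl30l2 held the counts that Rpl30 lacked, at 264, 291, 215, 418 and 441 in the young and 28, 10, 259 and 16 in old livers. The sum of Rpl30 and its copy rows was 20.3, 23.4, 20.7, 20.4 and 22.8 CPM in the young and 32.1, 30, 24.3 and 23.3 CPM in the old livers. The highest sum was 1.58-fold above the lowest, and the coefficient of variation was 17.5% in place of 78.8%. The log2 fold change of the sum was 0.35 ± 0.11, with an unadjusted p of 0.0109 and an edgeR adjusted p of 0.175.

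Rpl17 with 4 copy rows summed to 24.3, 36.8, 35.2, 35.6 and 30.4 CPM in the young and 60.7, 40.3, 41.8 and 33.4 CPM in the old livers. The sums of the 2 groups overlapped, unlike the Rpl17 row itself, and the log2 fold change was 0.44 ± 0.18 (edgeR adjusted p = 0.267). The row named Rps4x held 0.267 to 1.69 CPM, while RefSeq gives the symbol Rps4x to another row as well, at 13.8 ± 1.01 CPM in the young and 14.6 ± 0.684 CPM in the old livers. Their sum, with one more copy row, varied by 6.63% over the 9 libraries and had a log2 fold change of 0.08 ± 0.09. For Rpl8 the copy row added little, and the log2 fold change of the sum was -0.91 ± 0.60. Among the rows under other names, none that RefSeq gives as a copy of Rps9 or Rps10 had 50 counts. The numbered copy Rps10l1, counted above under its own symbol, had 185.

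**Figure D4:**
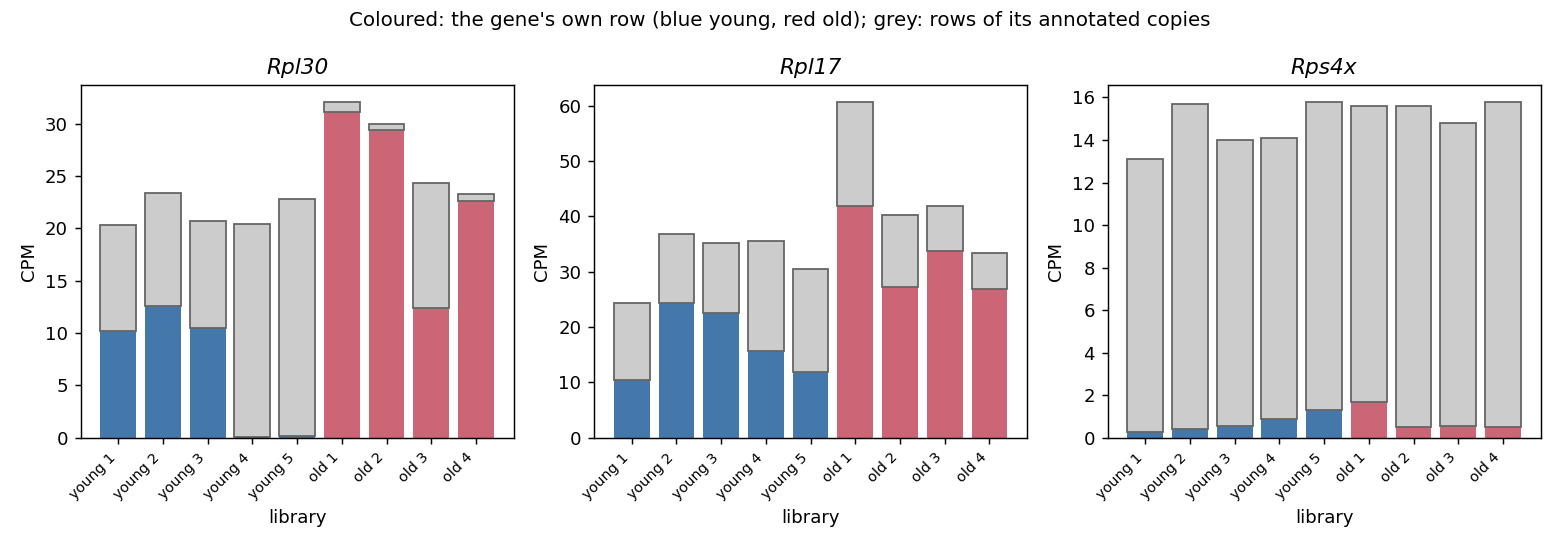
CPM (vertical axis) in each library (horizontal axis) of the row of Rpl30, Rpl17 and Rps4x (blue for young, red for old) with the rows of their annotated copies stacked in grey. The coloured part of Rpl30 is near 0 in young 4 and young 5 while the whole bar ranges 1.58-fold; nearly all counts of Rps4x lie in the copy rows.

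Some ribosomal proteins were nearly or wholly uncounted under their own symbol. Rps6, the small subunit protein phosphorylated downstream of mTORC1, had 11 counts in all libraries together and Rps12 had 28. The numbered copies Rpl30l1 and Rps19l1 had 10 and 18. Another 8 genes fell under the minimum of 10 counts: Rpl9, Rpl35a, Rpl37, Rpl38, Rps14, Rps20, Rps26 and Rps27a, with 0 to 6 counts each. For Rps14 and Rps26 a copy row was well filled. Rps14-ps7 was at 68.3 ± 4.98 CPM in the young and 73.5 ± 8.64 CPM in the old livers, and Rps26-ps11 at 27.3 ± 2.76 and 30.4 ± 8.73 CPM, with log2 fold changes of 0.11 ± 0.10 and 0.16 ± 0.17. Rps27a, a fusion of ubiquitin and a ribosomal protein, had 0 counts under its name, and RefSeq gives that symbol to another row with 96 counts. RefSeq annotates 1 to 36 loci as copies of each of the 69 genes, with a median of 14. It annotates 6 to 29 for the 8 genes under the minimum, with a median of 15. How the authors counted reads that match several loci is not given in the sources used here, so the levels of single genes in this family, and differences between a gene and its copies, are uncertain.

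Other genes of the ribosome lie outside the naming rule. Fau, a fusion of a ubiquitin-like protein with a small subunit protein, was at 40.3 ± 4.31 CPM in the young and 47.7 ± 9.47 CPM in the old livers. Gnb2l1, listed under the older symbol of Rack1, which encodes a scaffold protein on the small subunit, was at 206 ± 18.4 and 245 ± 29.4 CPM. The log2 fold changes were 0.24 ± 0.13 and 0.25 ± 0.11, and neither passed the adjusted threshold. Among paralogs that the rule left out, Rpl36al had a log2 fold change of 0.43 ± 0.17 (edgeR adjusted p = 0.258), Rps27l one of 0.35 ± 0.23 and Rpl10l one of -0.26 ± 0.47.

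The mitochondrial ribosome, which is built of other proteins, had a median log2 fold change of 0.17 over 74 tested genes. At an unadjusted p under 0.05, 8 (10.8%) were higher and 0 lower, near the 8.94% of all genes higher, and 0 passed the adjusted threshold. Mrpl48 was at 12.1 ± 0.458 CPM in the young and 16.4 ± 3.68 CPM in the old livers (log2 fold change 0.44 ± 0.14, edgeR adjusted p = 0.153), and Mrps26 at 14.5 ± 1.35 and 18 ± 1.87 CPM (log2 fold change 0.31 ± 0.11, edgeR adjusted p = 0.189). Without old 1 the median of this list was 0.03, and with totals alone -0.01.

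Genes with TOP mRNAs other than ribosomal protein genes had a median of 0.15 over 24 tested. At an unadjusted p under 0.05, 7 (29.2%) were higher and 0 lower, against 8.94% and 6.96% of all genes. Without old 1 the median was 0.11 with 4 higher, against 8.63% of all genes higher in that setting. With totals alone the median was -0.02 with 1 higher, against 3.81% of all genes. Tpt1, which encodes the translationally controlled tumour protein, was at 272, 390, 293, 335 and 409 CPM in the young and 653, 540, 383 and 446 CPM in the old livers. Old 3 lay inside the young range, and the log2 fold change was 0.57 ± 0.18 (edgeR adjusted p = 0.163). Eef1g, a subunit of the factor that recharges the elongation factor carrying transfer RNA, was at 142 ± 4.01 CPM in the young and 174 ± 15.7 CPM in the old livers without overlap. Its log2 fold change was 0.29 ± 0.09, with an edgeR adjusted p of 0.158 and one of 0.0227 in DESeq2. Eef1d of the same factor had 0.31 ± 0.12. Among 36 initiation factor genes the median was 0.09, with 4 (11.1%) higher and 1 lower at an unadjusted p under 0.05, again near the 8.94% of all genes; Eif3h had 0.29 ± 0.11 and Eif3b 0.23 ± 0.09. The 11 elongation factor genes had a median of 0.08, with 3 (27.3%) higher and 0 lower. Without old 1 only 1 was higher, and with totals alone 0 were higher and 1 was lower, where 20.9% of all genes were lower. The groups did not overlap in 2 of the 11 (18.2%), each higher in old livers, against 3.40% of all genes higher. Several genes stand in both the TOP list and these factor lists.

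The machinery that makes ribosomes had medians near that of all genes. The 62 tested genes of ribosome biogenesis had a median log2 fold change of 0.04. At an unadjusted p under 0.05, 2 (3.23%) were higher and 2 lower, against 8.94% and 6.96% of all genes. Ddx10, an RNA helicase, lay below the young range in all old livers, at 17.5 ± 1.72 CPM in the young and 13.8 ± 1.32 CPM in old ones (log2 fold change -0.35 ± 0.11, edgeR adjusted p = 0.156). Nop2, a ribosomal RNA methyltransferase, was at 21.3 ± 1.62 and 25.4 ± 0.534 CPM, with the old livers higher without overlap (log2 fold change 0.25 ± 0.08, edgeR adjusted p = 0.177). Each was the only gene of this list without overlap in its direction, 1 of 62 (1.61%). Of all genes, 3.40% were higher and 3.12% lower without overlap. The 14 genes of RNA polymerase I and its factors, which transcribe ribosomal RNA, had a median of 0.04, with 0.23 ± 0.10 for Polr1a and 0.42 ± 0.24 for Taf1b. A list of 31 genes held the mTORC1 pathway with Myc and its partner Max, which are not components of it, and had a median of 0.03. At an unadjusted p under 0.05 the only gene higher was Max (0.26 ± 0.09), and 0 were lower; Nprl3 had 0.31 ± 0.16. As another large complex, the 34 constitutive proteasome genes had a median of 0.10 with 0 genes under an unadjusted p of 0.05, where Psmb3 had 0.27 ± 0.14 and Psmd11 -0.16 ± 0.08. No gene of these lists passed the adjusted threshold in edgeR.

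**Figure D5:**
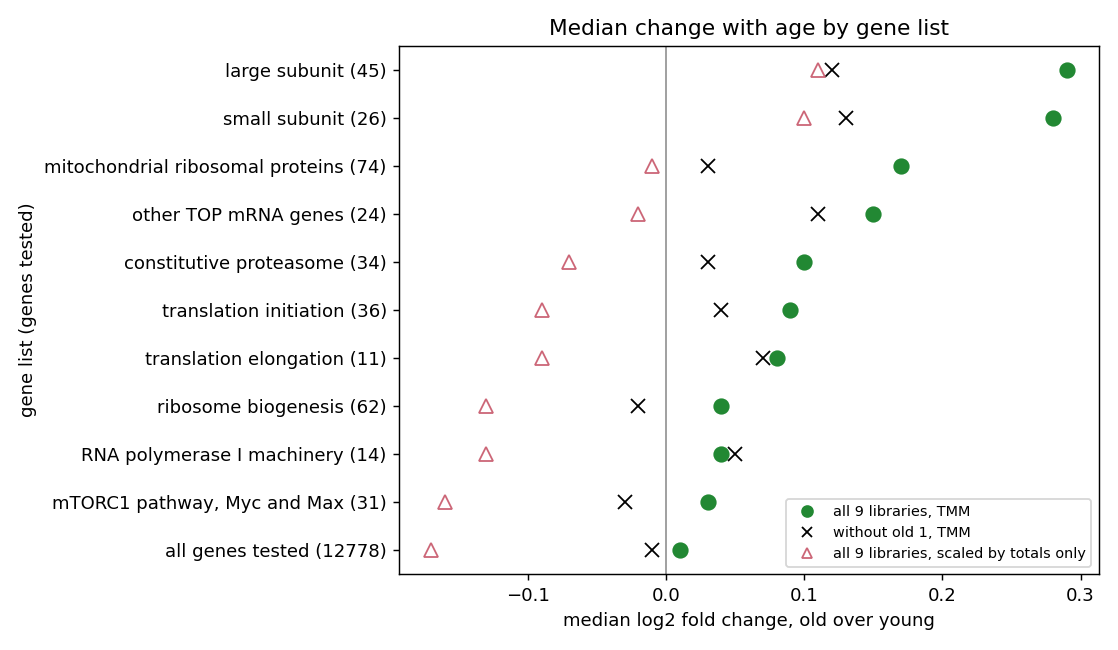
Median log2 fold change of old over young (horizontal axis) for each gene list (vertical axis, with the number of genes tested), over all 9 libraries with TMM scaling (green circles), without old 1 (crosses) and with scaling by totals alone (triangles). Among the lists drawn, which do not include the cell type markers or the paralogs outside the naming rule, both ribosomal subunits stand highest at 0.29 and 0.28, all genes stand at 0.01, and the triangles of all lists are shifted to the left as is that of all genes, at -0.17.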

How the data were processed

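Each of the 9 poly(A) libraries is a column of one table in which the authors deposited whole-number read counts, not normalized, by gene symbol. Per the labels' protocols, a Qiagen RNeasy Mini column gave the RNA and an Illumina TruSeq RNA v2 preparation, which keeps no strand, gave the libraries, so overlapping genes on opposite strands cannot be told apart. BWA is the aligner per the submitters' processing notes. Version, genome build and the counting of reads with several matches are not given in the sources used here. The deposited table has 23479 rows, 18071 with any count.

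Genes were kept with edgeR's filterByExpr (minimum count 10, minimum total 15), which left 12778, and scaled by TMM. Old was compared with young over all 9 libraries by edgeR's two-sided quasi-likelihood F test with robust dispersion and Benjamini-Hochberg adjustment, threshold 0.05. A count of 0 lies under 3 counts, or 0.106 to 0.173 CPM by library, which covers counting error only. The log2 ratio of Rpl22l1 to Rpl22 was formed with 0.5 added to each count. Symbols, copies and start windows came from RefSeq tables of GRCr8. The members and gene lists were chosen with earlier results of these data known. Genes named are a fixed set (the stalk genes, Rpsa, Rpl3, Rpl41, Rpl22, Rpl22l1, Rpl7l1, Rps6 and genes outside the naming rule), for each subunit the 5 smallest p, the 2 lowest fold changes and the 2 highest and 2 lowest mean CPM, and up to 2 genes of each other list. Genes named for their spread, their copies or their known role were added after their values were seen, as was the summing of copy rows. The fit was tested on simulated counts. Alternatives were other scalings, filters, DESeq2, limma-voom, old 1 halved, the heart muscle markers left out, a replicate block and each library left out. Fits ran in R 4.3.3 (edgeR 4.0.16, DESeq2 1.42.0, limma 3.58.1), and the exact permutation and the figures (matplotlib 3.10.9) in Python 3.11.15. Some genes of these lists are not reported here.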

Additional observations from a re-analysis of the deposited data

Results flagged for a closer look

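In 6 of 106 groups of values, 1 library stood apart from the rest of its group by Dixon's 95% criterion, which chance alone meets in about 1 of 20 groups. Rpl3 was at 302 CPM in young 1, against 366 to 375 CPM in the other young livers. In old 1, Rpl22 was at 38.5 CPM against 20.6 to 22.3 in the other old livers. Rpl27 was at 106 CPM in old 1 against 73.5 to 76.2. For Eef1d the value in old 1 was 67.9 CPM against 49.4 to 49.6, and for Mrpl48 21.9 CPM against 14.3 to 14.8. Rps10 was at 11.9 CPM in old 2 against 0.201 to 0.369 in the other old livers.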

How the results depend on the processing

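The count of all genes called was 128, and it was 280 with scaling by totals alone, 687 with DESeq2, 68 with limma-voom, 53 with its quality weights and 30 to 201 with 1 library left out. Ribosomal protein genes called were 0, and 1 with a mean of at least 1 CPM (Rps9), 3 with DESeq2 (Rps9 among them), and 0 to 2 with 1 library left out: Rps9 without old 1, and Rpl12 and Rps10 without old 2. The calls of Rps9, which passes these filters only through its old libraries, are a description and no evidence of a difference. The 17 genes at an unadjusted p under 0.05 became 2 with totals alone, 5 with quality weights and 3 to 41 with 1 library left out. The Rpl22l1 to Rpl22 difference ran from -0.32 without old 3 to -0.07 without old 4. Replicate numbers mark different animals, and same-numbered libraries deviated with correlations of -0.098, 0.096, 0.315 and -0.167. With the replicate number as a block, 43 genes were called, no ribosomal protein gene, and 5 had an unadjusted p under 0.05.

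Signs turned in 7 of the 71 tested genes, none of them called: Rpl31l2, Rpl36 and Rps4x without old 1, the first also with totals alone, and 4 genes chosen by the naming rule. With totals alone, Rpl22l1 came to -0.05, Rpl7l1 to -0.13, Rpl4 to -0.12 and Rps21 to -0.13. With quality weights, Rpl22l1 came to -0.07, Rpl7l1 to 0.00 and Rps21 to -0.04. With 1 library left out, Rpl22l1 ran from -0.11 to 0.33, Rpl7l1 from -0.01 to 0.09, Rpl4 from -0.07 to 0.12 and Rps21 from -0.08 to 0.15. The subunit medians kept their sign throughout. The causes were not tested. At these depths a difference in genes of a few counts was not detectable.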
